A study of Mus musculus with 4 samples.

Results

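The genes of synaptic vesicles and of vesicle exocytosis were followed in the dentate gyrus of mice given repeated electroconvulsive stimulation (ECS) or chronic fluoxetine. They were taken by gene symbol: every gene whose symbol starts with Syt, Stx, Stxbp, Vamp, Snap, Cplx, Rab3 or Sv2, together with the synapsins, synaptophysin, 2 synaptogyrins, Nsf and a few genes of the active zone and of vesicle priming. On the array 80 such genes were represented by 149 probe sets with a single gene name, and 63 of them, with 105 probe sets, averaged a signal of 50 or more across the 4 arrays. They are 63 of the 7935 genes measured at that signal, each read by its brightest probe set.

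The 4 pools were dentate gyrus RNA of mice after 11 sessions of ECS, of sham mice handled for the same 11 sessions without shock, of mice that drank fluoxetine, a selective serotonin reuptake inhibitor, at 22 mg/kg for 28 days, and of vehicle mice that drank water for 28 days. All were C57Bl/6 mice, wild-type adults per the study's methods. Those methods give ECS under isoflurane anaesthesia, with sham mice treated alike apart from the shock, and name no isoflurane for fluoxetine or vehicle mice. The source labels of the ECS and sham arrays give 6 h, whereas the methods of the study give a later time of dissection, so the interval after the last session is not settled. Each group is 1 array of pooled RNA, fluoxetine-treated mice had been chosen for low frequency facilitation at the mossy fibre synapse, and neither an error nor a p-value can be given for any difference.

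A presynaptic terminal releases transmitter when a SNARE complex, formed by a vesicle protein of the Vamp family with a syntaxin and Snap25 on the plasma membrane, pulls the membranes together. Synaptotagmins sense the calcium that triggers this step, complexins hold the complex in readiness, Munc13 proteins prepare it, and Nsf takes it apart afterwards. Synapsins keep the reserve of vesicles clustered, and Rab3 proteins take part in their docking. In the dentate gyrus the granule cell axons, the mossy fibres, are known for strong presynaptic facilitation and for a form of long-term potentiation that needs Rab3a. The transcripts of a terminal lie mostly in the cell body, so those of mossy fibres lie mostly in the granule cells of the dentate gyrus. The pools were whole tissue that also held interneuron and glial transcripts, such as Gad1 at 3712 and Mbp at 6115 in sham. No value of the listed genes is therefore assigned to a cell type.

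The arrays had not been brought to a common level. The median signal of the probe sets kept was 219 on the ECS array, 236 on the sham array, 365 on the fluoxetine array and 335 on the vehicle array, which puts the median log2 ratio over all genes at -0.10 for ECS over sham and 0.12 for fluoxetine over vehicle. Of 10 granule cell markers 7 were measured, with Prox1, which defines these cells, at 98.3 after ECS, 112 in sham, 180 with fluoxetine and 155 with vehicle. The summed signal of the 7 was 7384 after ECS against 11919 in sham, and 8916 with fluoxetine against 17626 with vehicle. Of the 7, 5 were at least 1.5-fold lower in each comparison, against 6.47% of all genes with ECS and 3.26% with fluoxetine. After median-centring 3 markers were lower with ECS and 5 with fluoxetine, against 4.18% and 5.13% of all genes. The part of these markers in the values below was not tested. In a pool of whole tissue fewer cells of a type and less RNA per cell cannot be told apart. The study treats Calb1 and Tdo2 as mature granule cell markers and gives Dsp and Il1r1 similar developmental profiles. It reports NeuN staining and PSD-95 protein unaffected by repeated ECS.

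The share of the list past 1.5-fold was below that of all genes with ECS and close to it with fluoxetine. At a size of 1.5-fold (0.585 on the log2 scale), 0 of the 63 genes were higher with ECS, against 3.84% of all genes measured, and 2 genes, Stx2 and Sytl2, were lower, against 6.47% of all genes. Both directions together made 3.17% of the 63 genes and 10.3% of all genes. With fluoxetine 4 genes were higher (Syt12, Stx4a, Rab3c and Rab32), against 8.49% of all genes, and 4 were lower (Syt3, Sytl2, Rab3d and Syt17), against 3.26%. Together these were 12.7% of the 63 genes, close to the 11.8% of all genes.

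With each array centred on its median the same 2 and 8 genes passed, when the shares of all genes were 5.34% higher, 4.18% lower and 9.53% in either direction with ECS, and 5.82%, 5.13% and 11.0% with fluoxetine. Counting both comparisons, 9 of the 63 genes (14.3%) passed in at least 1, against 17.3% of all genes. Sytl2 alone passed downwards in both, where 1.9% of all genes did, 0 passed upwards in both, where 2.79% did, and 0 passed in opposite directions, where 0.113% did.

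The middle of the list lay close to the middle of all genes. The 63 genes had a median log2 ratio of -0.04 for ECS over sham and of 0.19 for fluoxetine over vehicle. With centred arrays it was 0.07 in both, against 0.01 and -0.01 over all genes. Log2 ratios of the 63 genes ran from -0.76 to 0.45 with ECS, with an SD of 0.24 across genes, and from -0.88 to 0.89 with fluoxetine, with an SD of 0.34. Across all genes these SDs were 0.42 and 0.43. By role the spread differed with fluoxetine: the synaptotagmins had an SD of 0.51 and the SNARE proteins 0.22, as the plot of log2 ratios by role shows. With ECS these SDs were 0.23 and 0.21. The lowest and highest synaptotagmin ratios with fluoxetine were those of Syt3 and Syt12, dim genes with mean signals of 51.8 and 75.9.

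**Figure D1:**
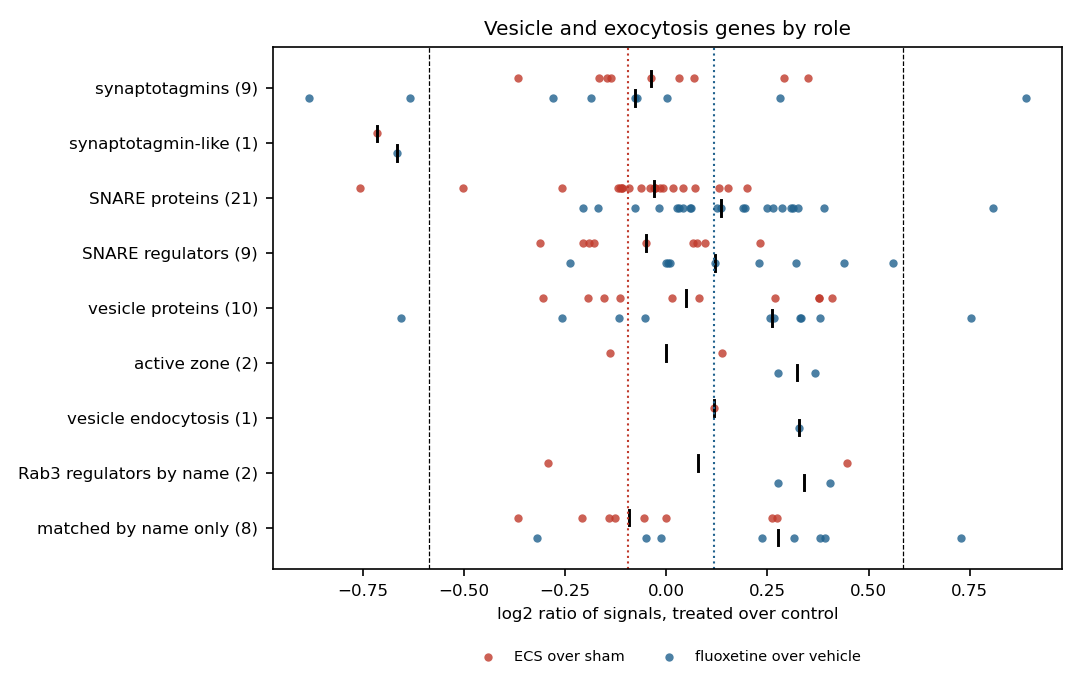
Log2 ratio of the signals (horizontal axis) of the 63 genes grouped by role, red for ECS over sham and blue for fluoxetine over vehicle, 1 point per gene, with the number of genes in brackets. Black bars are medians of a role, dotted lines the medians of all genes measured (-0.10 and 0.12) and dashed lines 1.5-fold; 54 of the 63 genes lie between the dashed lines in both comparisons, and 5 of the 9 roles have a point beyond them.

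Signal level went with the size of the ratios. Of the 18 genes with a mean signal of at least 1000, none reached 1.5-fold in either comparison, where 8.35% of all genes of that signal did, and their largest log2 ratios were 0.38 in both comparisons, of Syn2. Between 200 and 1000, 3 of 31 genes (9.68%) passed in at least 1 comparison, against 13.5% of all genes. Below 200, 6 of 14 genes (42.9%) passed, against 27.4%. Thus 6 of the 9 genes past 1.5-fold were dim ones, and the bright genes of the core machinery were not among them.

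**Figure D2:**
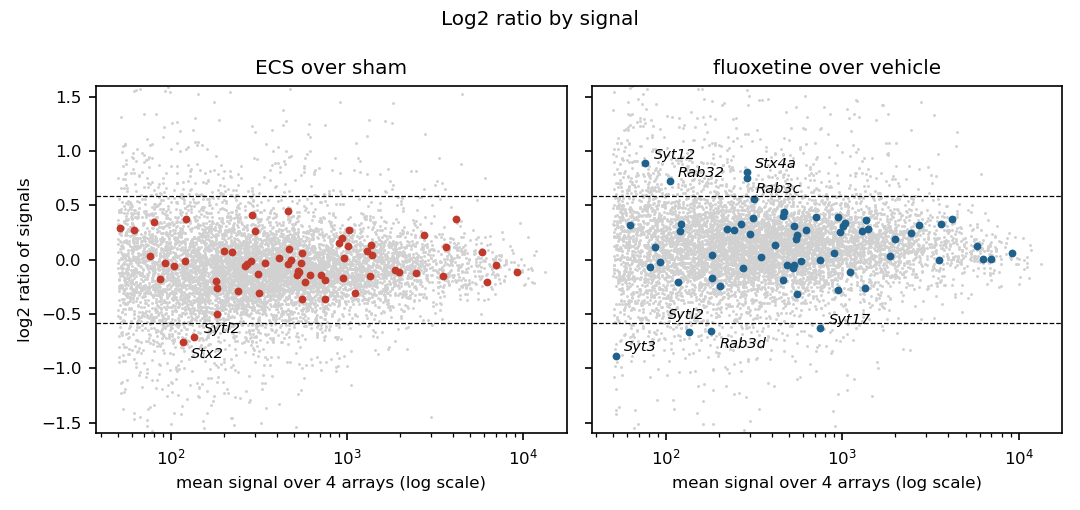
Log2 ratio of the signals (vertical axis) against the mean signal over the 4 arrays (horizontal axis, log scale), for ECS over sham at left and fluoxetine over vehicle at right, with all 7935 genes in grey, the 63 genes in colour and dashed lines at 1.5-fold. The vertical axes end at 1.6, which leaves out 66 genes at left and 91 at right, none of them a vesicle gene; the coloured points beyond the lines lie at signals below 1000.

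The core genes of fusion lay inside 1.5-fold by their brightest probe sets. Snap25, the plasma membrane SNARE of fast release, had a signal of 7088 after ECS against 7649 in sham, and of 11296 with fluoxetine against 10853 with vehicle. Its log2 ratios were -0.11 and 0.06. Syntaxin 1A (Stx1a) had 800.0 and 719.7, and 1065 and 1021, with ratios of 0.15 and 0.06, and Vamp2, the main vesicle SNARE, had ratios of -0.11 and 0.19. A dim second probe set of Stx1a gave -0.57 and -0.63, and the mean over both probe sets -0.21 and -0.28. Vamp1 had -0.04 and -0.08. Nsf, the ATPase that recycles SNARE complexes, had -0.20 and 0.00, complexin 2 (Cplx2) -0.05 and 0.01, and the calcium sensor Syt1 -0.14 and -0.08. Sv2b, Sv2c and Rims1 had no probe set with a single gene name in the annotation used, and Bsn was below the signal limit.

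The 21 SNARE genes had medians of -0.03 for ECS over sham and 0.14 for fluoxetine over vehicle. Past 1.5-fold in at least 1 comparison were 2 of them, where 17.3% of all genes were. The one lower with ECS was Stx2, a plasma membrane syntaxin of many tissues. Its signal was 80.8 after ECS and 136 in sham, 117 with fluoxetine and 135 with vehicle, so that the ECS pool alone stood low on the deposited scale. The log2 ratios were -0.76 and -0.20. Relative to each array's median, however, sham lay above vehicle by 0.52 for this gene, and set against the vehicle array instead the ECS value was only -0.13. The higher one was Stx4a, the plasma membrane syntaxin best known from glucose transporter and granule secretion, with 450 in the fluoxetine pool against 257 in vehicle, and 220 after ECS against 221 in sham. The log2 ratios were 0.81 with fluoxetine and -0.01 with ECS.

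Other SNAREs serve traffic inside the cell, and their values were mostly near those of all genes. Stx17, a SNARE of autophagosomes, had 118 after ECS and 167 in sham, a log2 ratio of -0.50 that its second probe set gave as -0.25, and with fluoxetine -0.17. Stx7, of late endosomes, had 0.20 and 0.39, and Vamp7, of endosomes and lysosomes, 0.13 and 0.31. Stx12, Stx18, Stx8 and Snap23 lay between -0.09 and 0.14 in both comparisons.

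Among the 9 SNARE regulators 0 passed 1.5-fold in either comparison, where 17.3% of all genes passed in at least 1. Their medians were -0.05 and 0.12. Nearest was Stxbp3 (Munc18-3, the partner of syntaxin 4 in fat and muscle cells), with 492 with fluoxetine against 333 with vehicle, and 196 after ECS against 243 in sham. Its log2 ratios, 0.56 and -0.31, had opposite signs. Unc13a (Munc13-1), which primes vesicles for release, had 615 with fluoxetine against 454 with vehicle (0.44), and 416 after ECS against 390 in sham (0.09). Complexin 1 (Cplx1), which is found in many inhibitory terminals, had 0.23 with ECS and 0.32 with fluoxetine. At the active zone, where the large scaffold proteins sit, Pclo had 0.14 and 0.37 and Rims2 -0.14 and 0.28.

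At least 1.2-fold higher in both comparisons were 6 genes, 9.52% of the 63 against 8.59% of all genes. Of these 6, 4 were vesicle proteins. Syn2, the second synapsin, had a signal of 4141 after ECS against 3191 in sham, and of 5271 with fluoxetine against 4053 with vehicle. The treated pool was the higher in both pairs, by 0.38 each time on the log2 scale as deposited and by 0.48 with ECS and 0.25 with fluoxetine after centring. Its second probe set gave 0.27 and 0.16 as deposited. Syn1 had 928 and 770, and 1351 and 1072, which is 0.27 with ECS over sham and 0.33 with fluoxetine over vehicle. Rab3c, one of the 4 vesicle GTPases of the Rab3 family, had 284 after ECS against 213 in sham and 409 with fluoxetine against 243 with vehicle, ratios of 0.41 and 0.75, and its second probe set gave 0.45 and 0.56. Rab3b, a dimmer member of that family, had 125 and 96.0, and 149 and 118, ratios of 0.38 and 0.33. Against the exchanged control arrays, after centring, Syn2 had 0.64 with ECS and 0.10 with fluoxetine, and Rab3c 0.84 and 0.31. Rab3b had 0.69 and 0.00 there, and Syn1 0.40 and 0.18. After centring sham lay above vehicle for these genes, by 0.16 for Syn2, 0.32 for Rab3c, 0.20 for Rab3b and 0.03 for Syn1. That difference raises the ECS ratio and lowers the fluoxetine ratio in this exchange, so the larger ECS values there are no separate result.

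Other vesicle proteins did not follow. Synaptophysin (Syp), the most used marker of vesicle membranes, had 759 after ECS against 938 in sham and 1304 with fluoxetine against 1414 with vehicle, ratios of -0.31 and -0.12. Rab3a, the family member required for mossy fibre potentiation, had 1095 and 1218, and 1395 and 1667, ratios of -0.15 and -0.26. Sv2a, the vesicle glycoprotein that binds levetiracetam, had 0.08 and 0.27. Over the 10 vesicle proteins the medians were 0.05 with ECS and 0.26 with fluoxetine. At 1.5-fold 1 was higher and 1 lower, both with fluoxetine, against 8.49% and 3.26% of all genes.

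The lower one was Rab3d, known from secretory granules of exocrine glands. Its signal was 159 with fluoxetine against 251 with vehicle, a ratio of -0.66, and 144 after ECS against 165 in sham, -0.19. The other probe sets of Rab3d, both dim, gave -0.02 and 0.68 with fluoxetine, so the gene has no settled direction there.

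At least 1.2-fold higher in both comparisons were Rab30, Rab3ip and 4 vesicle proteins, Rab3b, Rab3c, Syn1 and Syn2. The promoter sequences of the 4 vesicle proteins are shown. Each runs from 250 bases before to 50 after the start furthest upstream in the gene's own direction, 5′ to 3′ on the gene's strand, from RefSeq on GRCm38.p6. Rab3b is at chr4:108878820-108879119 on the plus strand, Rab3c at chr13:110280157-110280456 on the minus strand, Syn1 at chrX:20920869-20921168 on the minus strand and Syn2 at chr6:115134652-115134951 on the plus strand. Capitals mark matches on either strand to 4 motifs: the cAMP response element (TGACGTCA), the AP-1 site (TGANTCA), the Egr site (GCGNGGGCG) and the left part of the site of the repressor REST (TCAGCACC), the last chosen after the sequences had been read.
Rab3b: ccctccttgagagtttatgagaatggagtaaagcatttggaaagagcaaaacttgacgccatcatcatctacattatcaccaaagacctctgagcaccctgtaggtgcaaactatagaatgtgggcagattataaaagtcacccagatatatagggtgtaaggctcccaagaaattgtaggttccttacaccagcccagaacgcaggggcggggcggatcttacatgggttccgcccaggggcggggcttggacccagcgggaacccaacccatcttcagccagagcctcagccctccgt
Rab3c: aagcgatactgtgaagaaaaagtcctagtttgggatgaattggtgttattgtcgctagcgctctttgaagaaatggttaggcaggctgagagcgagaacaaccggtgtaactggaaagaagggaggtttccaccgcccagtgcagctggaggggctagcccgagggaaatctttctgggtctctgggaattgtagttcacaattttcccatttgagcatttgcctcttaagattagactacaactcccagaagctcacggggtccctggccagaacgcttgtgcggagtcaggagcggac
Syn1: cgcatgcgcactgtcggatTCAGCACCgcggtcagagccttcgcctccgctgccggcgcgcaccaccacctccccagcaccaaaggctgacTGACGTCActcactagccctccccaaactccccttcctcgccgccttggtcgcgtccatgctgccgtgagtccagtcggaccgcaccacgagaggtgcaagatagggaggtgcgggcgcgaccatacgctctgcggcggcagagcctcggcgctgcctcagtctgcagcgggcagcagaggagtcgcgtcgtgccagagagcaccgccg
Syn2: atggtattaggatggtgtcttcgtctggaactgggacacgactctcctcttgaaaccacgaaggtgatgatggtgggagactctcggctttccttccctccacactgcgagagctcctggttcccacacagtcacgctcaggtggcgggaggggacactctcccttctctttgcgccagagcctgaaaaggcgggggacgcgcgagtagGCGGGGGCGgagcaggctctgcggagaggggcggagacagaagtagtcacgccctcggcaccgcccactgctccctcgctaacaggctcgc

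Syn1 holds the REST letters from position 20 and a cAMP response element from position 92, counted from 1 at the 5′ end of the stretch. Syn2 holds an Egr site from position 210, and the Rab3b and Rab3c stretches hold none of the 4 motifs. Of the 63 genes 48 had a promoter in the table. The cAMP response element was in 2 of the 48 (Syn1 and Stxbp3), which is 4.17% against 1.85% of all 27025 promoters. Those 27025 were not limited to genes past the signal limit, as the 48 were, so the shares are of unlike sets. The AP-1 site was in 1 (Rab34), 2.08% against 7.92%, and the REST letters in 2 (Syn1 and Unc13a), 4.17% against 1.6%. The Egr site, which belongs to factors of the immediate early genes, was in 7 (Cplx1, Nsf, Rab3ip, Stx2, Syn2, Syngr1 and Unc13a), 14.6% against 5.53%. The log2 ratios of these 7 ran from -0.76 to 0.45 with ECS, so that genes with an Egr match included both the lowest and the highest of all 63.

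Synaptotagmins went both ways with fluoxetine. The 9 measured had medians of -0.04 with ECS and -0.08 with fluoxetine. With ECS 0 passed 1.5-fold, against 10.3% of all genes. With fluoxetine 1 was higher, against 8.49%, and 2 were lower, against 3.26%. Syt17, a relative of the calcium sensors that lacks their membrane anchor, had 656 with fluoxetine against 1016 with vehicle, and 575 after ECS against 742 in sham. Both treated pools were the lower of their pair, by -0.63 and -0.37 on the log2 scale. Its second probe set, with 332 against 555 and 395 against 409, gave -0.74 and -0.05, so the value with fluoxetine was alike on both probe sets and that with ECS was not.

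The other synaptotagmins past 1.5-fold were dim. Syt12, a synaptotagmin without calcium binding that protein kinase A modifies in mossy fibre potentiation, had 124 with fluoxetine against 66.7 with vehicle, and 57.3 after ECS against 56.1 in sham. One pool of the 4 stood high, with ratios of 0.89 for fluoxetine and 0.03 for ECS. Syt3, a calcium-binding synaptotagmin, had 39.2 with fluoxetine against 72.3 with vehicle and 52.6 after ECS against 43.0 in sham, ratios of -0.88 and 0.29. It is the gene just inside the signal limit, at a mean of 51.8, and with signals below 50 taken as 50 its ratio with fluoxetine was -0.53, short of 1.5-fold. Next inside was Rab30 at 62.0, and just outside lay Rab3il1 at 48.9, Syt8 at 47.8 and Bsn at 44.9. Syt4 and Syt11, brighter relatives that do not bind calcium in the usual way, had -0.17 and -0.15 with ECS and -0.28 and 0.00 with fluoxetine.

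Sytl2, a synaptotagmin-like effector of Rab27 on secretory granules, was the single gene past 1.5-fold in both comparisons. Its signal was 71.8 after ECS against 118 in sham, and 135 with fluoxetine against 215 with vehicle. Each treated pool was lower than its control, by -0.72 and -0.67 on the log2 scale, although the fluoxetine pool lay above the sham pool on the deposited scale. Against the exchanged control arrays, after centring, the ratios were -0.97 with ECS and -0.43 with fluoxetine. One probe set of Sytl2 passed the signal limit, so no second reading exists. The bar plot of the 9 genes past 1.5-fold gives these signals side by side.

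**Figure D3:**
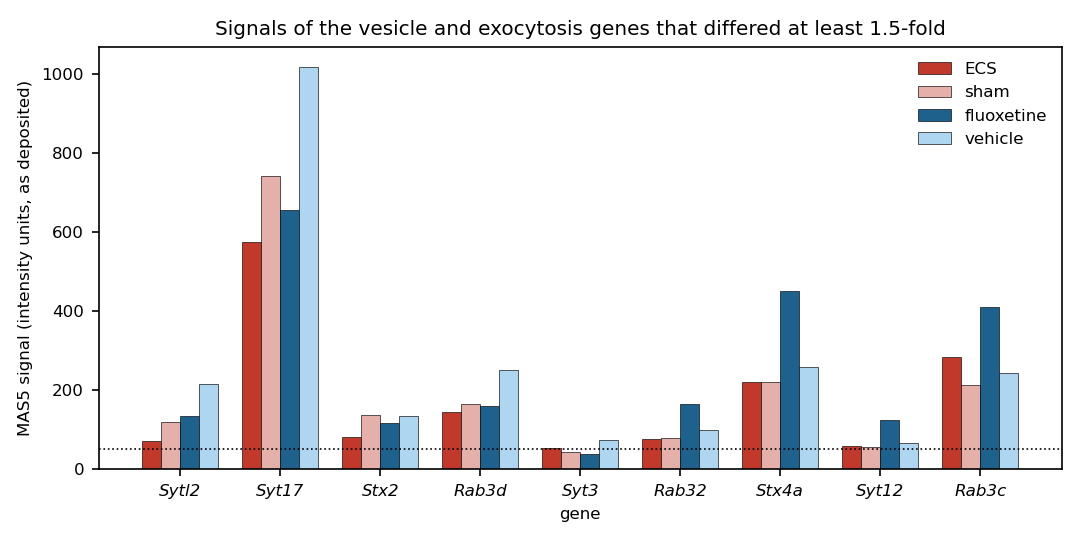
Signal as deposited (vertical axis, intensity units) of the 9 genes at least 1.5-fold different in either comparison, with a bar for ECS, sham, fluoxetine and vehicle in that order and a dotted line at the signal limit of 50. Each bar is 1 array of pooled RNA, so there are no error bars; Sytl2 is lower in both treated pools, while Stx4a, Syt12 and Rab32 stand high in the fluoxetine pool alone.

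A few genes entered by the spelling of their symbols and have other tasks. The 8 such genes were Rab proteins outside the Rab3 family and subunits of the small nuclear RNA activating complex (Snapc2, Snapc3). Of these 8, 0 passed 1.5-fold with ECS and 1 with fluoxetine, against 10.3% and 11.8% of all genes. That was Rab32, a GTPase of pigment granules and mitochondria, with 165 with fluoxetine against 99.4 with vehicle and 75.8 after ECS against 78.7 in sham (0.73 and -0.05). Under quantile normalization its fluoxetine ratio was 0.58, just short of the limit. Rab33a, which accompanies Golgi-derived vesicles in axons, had -0.37 and -0.32, and Rab3ip, an exchange factor for Rab8, had 0.45 and 0.41, the highest ECS ratio of all 63. Without the 8 genes, 55 remained. With ECS 2 of them were lower, against 6.47% of all genes. With fluoxetine 3 were higher and 4 lower, against 8.49% and 3.26%.

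Of the 4 genes higher with fluoxetine, Syt12, Stx4a and Rab32 had ECS ratios of 0.03, -0.01 and -0.05, and Rab3c had 0.41. All 4 were also higher in sham than in vehicle after centring, by 0.25, 0.29, 0.17 and 0.32 for Syt12, Stx4a, Rab32 and Rab3c. Set against the sham array instead of the vehicle array, with centring, the fluoxetine ratios were 0.51, 0.40, 0.44 and 0.31, and none passed 1.5-fold. The 4 lower genes kept 3 past the limit in that setting, with Syt17 at -0.80, Syt3 at -0.76 and Rab3d at -0.68, while Sytl2 had -0.43. Stx2 joined them at -0.85.

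Summed marker signals of several other cell types were also higher in the fluoxetine pool. Its array had the higher median signal, 365 against 335 with vehicle. At 1.5-fold 8.49% of all genes were higher with fluoxetine, or 5.82% after centring. The 7 of 8 microglial markers measured summed to 7035 with fluoxetine against 4996 with vehicle, and to 3343 after ECS against 3592 in sham, and 3 of 7 were at least 1.5-fold higher with fluoxetine, or 2 after centring. C1qb had 1290 against 732, and none of the 7 was at 0. The 8 astrocyte markers summed to 22005 with fluoxetine against 19102 with vehicle, and to 13139 after ECS against 13949 in sham, with 2 higher with fluoxetine (Gfap at 2.43 and Aqp4 at 0.86 on the log2 scale), and 1 higher (Gfap at 2.24) and 1 lower (Slc1a3 at -0.64) with ECS. Endothelial markers summed to 1473 with fluoxetine against 1304 with vehicle, with 2 of 7 higher, or 1 after centring. Their median log2 ratio with fluoxetine was 0.06, below the 0.12 of all genes. Interneuron markers summed to 11488 with fluoxetine against 10207 with vehicle, with 2 of 9 higher. After ECS they summed to 7491 against 7679 in sham, with 1 higher (Gad2 at 0.73), where 3.84% of all genes were. Of 10 CA1 and CA3 pyramidal cell markers 4 were measured. They summed to 2315 with fluoxetine against 1881 with vehicle, and to 1404 after ECS against 1355 in sham. In each comparison 1 of the 4 was higher (Bok) and 1 lower (Pou3f1). After centring 2 interneuron and 2 astrocyte markers were higher with fluoxetine. The 7 oligodendrocyte markers measured summed to 15961.6 with fluoxetine against 14092.5 with vehicle, with 0 higher at 1.5-fold. Whether such cells had a part in the signals of Stx4a, Stxbp3 and Rab32, which are expressed in many cell types, was not tested.

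The ratios of the 63 genes in the 2 comparisons, which share no array, were compared by rank and by size. Spearman's coefficient across genes was 0.49 over the 63 and 0.49 over 7935, whereas Pearson's was 0.43 over the 63 and 0.63 over 7935, and genes are not independent replicates. At a size of 1.2-fold, 6 genes were higher in both comparisons (Rab30, Rab3b, Rab3c, Rab3ip, Syn1 and Syn2), 9.52% of the 63 against 8.59% of all genes, and 3 lower in both (Rab33a, Sytl2 and Syt17), 4.76% against 7.33%. In the plot of one comparison against the other, the vesicle genes fill the inner part of the cloud of all genes.

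**Figure D4:**
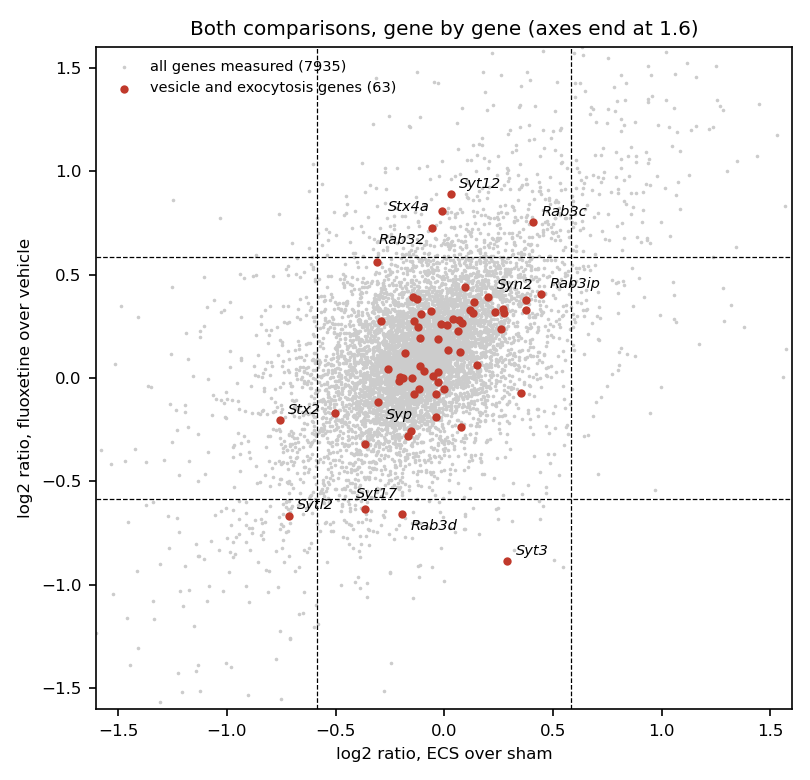
Log2 ratio of fluoxetine over vehicle (vertical axis) against that of ECS over sham (horizontal axis), with all 7935 genes measured in grey, the 63 vesicle and exocytosis genes in red and dashed lines at 1.5-fold. The axes end at 1.6, which leaves out 119 grey genes; Sytl2 is the one red point past 1.5-fold in both, at -0.72 and -0.67.

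Another measure of size is the spread between the control arrays, which differed in duration and in handling, isoflurane included, but in neither treatment. Its measure here is a median absolute deviation, scaled to an SD, of centred log2 sham over vehicle among the 500 probe sets nearest in signal, and it ran from 0.11 to 0.41 over the 63 genes with a median of 0.18. At 2 such spreads after centring, 6 genes were higher with ECS (Syn2, Rab3ip, Rab3c, Syn1, Cplx1 and Stx7), which is 9.52% of the 63 against 10.2% of all genes. Lower were Stx2 and Sytl2, 3.17% against 7.79%. With fluoxetine 6 were higher (Stx4a, Rab3c, Stxbp3, Syt12, Syn2 and Rab32), 9.52% against 10.6%, and 7 lower (Syt17, Rab3d, Sytl2, Syt4, Rab3a, Rab33a and Syt3), 11.1% against 10.2%. Syn2 and Rab3c were higher in both, where 5.66% of all genes were, and Sytl2 lower in both, where 3.76% were. By this measure Rab3a, which is bright, entered the lower genes at -0.26 as deposited, while its ECS ratio stayed inside.

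For 30 of the 63 genes a second probe set passed the signal limit. The second brightest had the same sign in 21 genes with ECS and 25 with fluoxetine, and lay within 0.3 of the brightest in 23 and 26. Vamp4 was among the exceptions, with 0.04 against -0.41 with ECS and 0.29 against -0.27 with fluoxetine. Vamp3, of recycling endosomes, had 0.31 against -0.28 with fluoxetine. The dim second probe set of Stx1a had 68.1 after ECS against 101 in sham and 96.2 with fluoxetine against 149 with vehicle and had the opposite sign from the bright one in both. The ratios of these genes therefore depend on the probe set read.

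**Figure D5:**
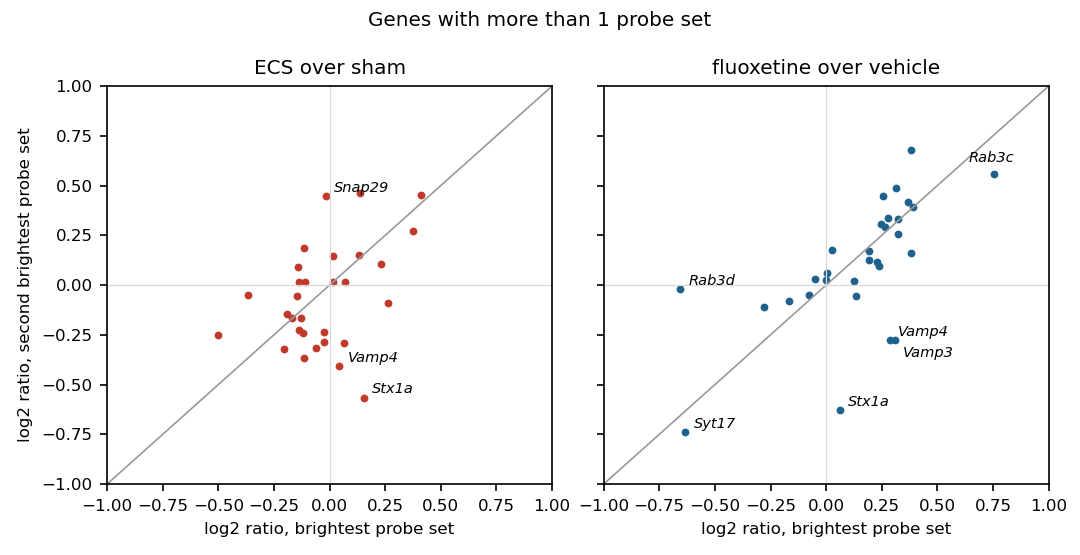
Log2 ratio of the second brightest probe set (vertical axis) against that of the brightest (horizontal axis) for the 30 genes with more than 1 probe set, for ECS over sham at left and fluoxetine over vehicle at right, with the line of equality. Syt17 and Rab3c lie near the line with fluoxetine, while Stx1a, Vamp3, Vamp4 and Rab3d lie away from it.

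Neighbouring steps of the vesicle cycle were read from 3 lists outside the symbol rule, apart from Snap91 and Stx7 in the first. Of 24 genes of vesicle endocytosis and recycling 0 passed 1.5-fold with ECS, against 10.3% of all genes. With fluoxetine 2 were higher, against 8.49% of all genes, and 1 lower, against 3.26%, and the medians were 0.07 and 0.17. After centring 1 was higher and 1 lower with fluoxetine, against 5.82% and 5.13% of all genes. Cltb, a clathrin light chain, had 1474 with fluoxetine against 661 with vehicle and 675 after ECS against 507 in sham, ratios of 1.16 and 0.41. Ap2b1, a subunit of the AP-2 adaptor, had 0.68 and 0.35 as deposited, the first 0.56 after centring, and Sh3gl1, an endophilin, -0.75 and -0.25. These 3 and the next named genes of this paragraph were chosen after their values were seen, since none passed in both comparisons. Of 18 genes of vesicle loading 0 passed in either comparison, where 17.3% of all genes passed in at least 1. Their medians were 0.10 and 0.27. Slc30a3, which fills mossy fibre vesicles with zinc, had 899 with fluoxetine against 611 with vehicle, 0.56, and 0.09 with ECS.

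Of 35 other presynaptic release genes 0 passed with ECS, against 10.3% of all genes. With fluoxetine 1 was lower, against 3.26%, or 2 after centring, against 5.13%. The medians were -0.05 and 0.12. The one lower as deposited was Rph3a (rabphilin), an effector of Rab3 on vesicles, with 342 with fluoxetine against 557 with vehicle and 251 after ECS against 361 in sham, ratios of -0.70 and -0.52. Both treated pools were lower than their controls. Cadps2, which acts in dense-core vesicle release, had -0.48 with ECS and -0.40 with fluoxetine, and Doc2a, a calcium sensor of spontaneous release, -0.01 and -0.58, with fluoxetine -0.70 after centring.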

How the data were processed

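The authors pooled dentate gyrus RNA by group, amplified it, hybridized each pool to 1 Affymetrix mouse genome 430A 2.0 array and computed signals with MAS5. The deposited values are linear signal intensities, not scaled between arrays; detection calls and probe-level data were not used here. Control probe sets (64 of 22690) and probe sets with a mean intensity below 50 over the 4 arrays, the limit of the study's methods, were left out, which kept 13422. Names came from the platform annotation; those listing several genes, or none, were not named, and current symbols altered 0 names.

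Log2 ratios of ECS over sham and fluoxetine over vehicle were computed from the intensities as deposited, in scipy 1.17.1, pandas 2.3.3 and numpy 2.4.6 under Python 3.11.15, and drawn with matplotlib 3.10.9. A gene was counted at 1.5-fold. With 1 array per group no test was run, and the number of arrays limits the precision. The steps were tested on simulated arrays. Named genes were those past 1.5-fold, the 5 with the highest and the 5 with the lowest mean of both ratios and a set list of core release genes; others named were chosen after their values were seen. Genes and lists were chosen with earlier results of these data known. Alternatives were median-centring, quantile normalization, other signal filters, a floor of 50, the mean over probe sets, exchanged control arrays, 1.2-fold and, added after the data were seen, 2 control spreads.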

Additional observations from a re-analysis of the deposited data

How the results depend on the processing

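The counts and medians are of single arrays, so the only check on them is other processing. With no signal filter, which takes in all 80 genes, ECS gave 4 higher and 6 lower genes and fluoxetine 7 and 8, where the shares of all genes were 12.0%, 13.9%, 15.7% and 11.3%. With a mean signal of at least 200, which leaves 49 genes, ECS gave 0 lower genes, and fluoxetine 2 higher and 1 lower (all genes 4.39%, 6.32% and 2.35%). With the control arrays exchanged after centring, 4 were higher (Rab30, Rab3b, Rab3c and Syn2) and 1 lower (Sytl2) with ECS, 0 were higher and 4 lower with fluoxetine (all genes 7.2%, 4.64%, 6.49% and 6.35%), and the median with fluoxetine was -0.023. At 1.2-fold ECS gave 8 higher and 8 lower genes, and fluoxetine 26 and 6 (all genes 11.7%, 26.1%, 30.5% and 11.2%). At 2 control spreads, added after the data were seen, 6 were higher with ECS and 7 lower with fluoxetine, each against 10.2% of all genes. The ratio of Rab3d with fluoxetine turned to 0.0015 as a mean over its probe sets. Of 208 ratios of 26 named genes under median-centring, quantile normalization, the mean over probe sets and exchanged control arrays, 158 moved by less than the control spread and 49 others by more, 28 of these with exchanged control arrays. The cause was not tested. No paired analysis was possible because each group has 1 array. Dim genes near the limit of 50 have the widest control spread, and levels of different genes cannot be set against each other on this platform.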

Other observations

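Some of the 17 genes below the signal limit are given here with their signals. Syt2, a fast calcium sensor known from inhibitory terminals and the brainstem, had its brightest probe set at 14.9 after ECS, 10.2 in sham, 38.8 with fluoxetine and 26.2 with vehicle. Syn3, the synapsin of developing neurons, had 4.90, 18.1, 5.10 and 9.60 in the same order, and Bsn, the active zone scaffold Bassoon, 32.2, 25.4, 70.3 and 51.7. Cplx3, a complexin of retinal ribbon synapses, had 18.8 after ECS against 36.3 in sham and 18.3 with fluoxetine against 37.9 with vehicle. No ratio is given for these genes, since a signal this low says little of the transcript's level.

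One dimmer reading differs from the bright ones of its gene. Stx6, a SNARE of the trans-Golgi network, had -0.12 with ECS and 0.25 with fluoxetine by its brightest probe set, and a dimmer probe set with 382 after ECS against 255 in sham and 500.4 with fluoxetine against 346 with vehicle gave 0.58 and 0.53.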
